A study of Mus musculus with 31 samples.

Results

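Transcript levels of autophagy genes were measured in the livers of mice that lack Xbp1 or Ire1, components of the same arm of the unfolded protein response. The list held 10 genes, chosen by name, and each gene was to be read from its probe set of highest average intensity across the arrays. Of these, 8 (Ulk1, Becn1, Wipi1, Atg5, Atg7, Atg12, Gabarapl1 and Tfeb) had at least 1 probe set of their own, out of 17097 genes in all. Sqstm1 was measured only by a probe set that the annotation gives to both Mrnip and Sqstm1, so its signal is reported as shared and is not counted among the 8. No intensity of Map1lc3b was analysed here.

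Total liver RNA of male mice was hybridised to an Affymetrix mouse array, and 31 arrays fell into 8 groups. Xbp1 ko mice were set against WT littermates, both 14 weeks old, in the fed state and labelled c57BL/6, with 4 arrays each. Xbp1 ko mice of 9 weeks, labelled c57BL/6, were sampled 8 days after injection of IRE1 siRNA or of luciferase siRNA, with 4 arrays each, so both of these groups lacked Xbp1. The Ire1 experiment held 14-week-old mice: 4 Ire1 ko arrays at 6 h after 2 mg/kg tunicamycin, 3 of untreated Ire1 ko, 4 of WT at 6 h after 2 mg/kg tunicamycin and 4 of untreated WT littermates. Tunicamycin blocks N-linked glycosylation and so loads the endoplasmic reticulum (ER) with unfolded protein. No group was labelled as given vehicle alone, so tunicamycin and its injection cannot be told apart. The Ire1 ko mice were labelled as a mixed strain and the WT mice as c57BL/6, so that, if the labels are right, the Ire1 genotype and the strain cannot be told apart. The labels do not give the deleted part of either gene or the driver of its deletion. Arrays of the same group are labelled as biological replicates.

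Autophagy encloses cytoplasm, organelles and protein aggregates in a double membrane, the autophagosome, which fuses with lysosomes for degradation. A kinase complex around ULK1 starts the process, a lipid kinase complex with beclin 1 marks the membrane, and ubiquitin-like conjugation fixes proteins of the ATG8 family to it, where they bind cargo receptors such as p62. In liver the pathway supplies amino acids during fasting and removes damaged organelles, and transcript levels alone do not measure its rate. IRE1, encoded by Ern1, is an ER membrane kinase and endoribonuclease that splices the mRNA of the transcription factor XBP1.

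The deposited values were linear intensities of probe sets, given as whole numbers, with a lowest value of 3 and a median of 5 on every array. Correlations between arrays of the same group lay between 0.9841 and 0.9934. Xbp1 was lower in Xbp1 ko than in WT littermates (log2 difference -1.01). Ern1 had a log2 difference of 0.04 between untreated Ire1 ko and WT liver, and whether its probe set lies in the deleted part is not known, so the value checks nothing. Ern1 went against the siRNA labels: it lay between 169 and 236 on the 4 arrays labelled IRE1 siRNA and between 18 and 35 on the 4 labelled luciferase siRNA, and every direction given for these arrays turns round if the labels were exchanged. Ddit3, which encodes the stress factor CHOP, was at 117 on untreated Ire1 ko replicate 2, against 14 and 16 on the other 2 arrays of its group. Without that array, the calls of the 8 autophagy genes were the same in the comparisons that use it, other than that of Wipi1 for the difference between genotypes. Sums of 8 hepatocyte markers lay between 38014 and 40459 in Xbp1 ko livers and between 40814 and 44656 in WT littermates, and between 36499 and 36687 on arrays labelled IRE1 siRNA and between 38718 and 39791 on those labelled luciferase siRNA. Neither pair overlapped, and the part of this in the results was not tested.

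A gene was called changed when limma's test gave an adjusted p under 0.05 (Benjamini-Hochberg over all genes tested in that comparison), and log2 differences are the first named group minus the second. Intensities of different probe sets cannot be set against each other, and differences of probe sets near the floor are compressed.

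**Figure D1:**
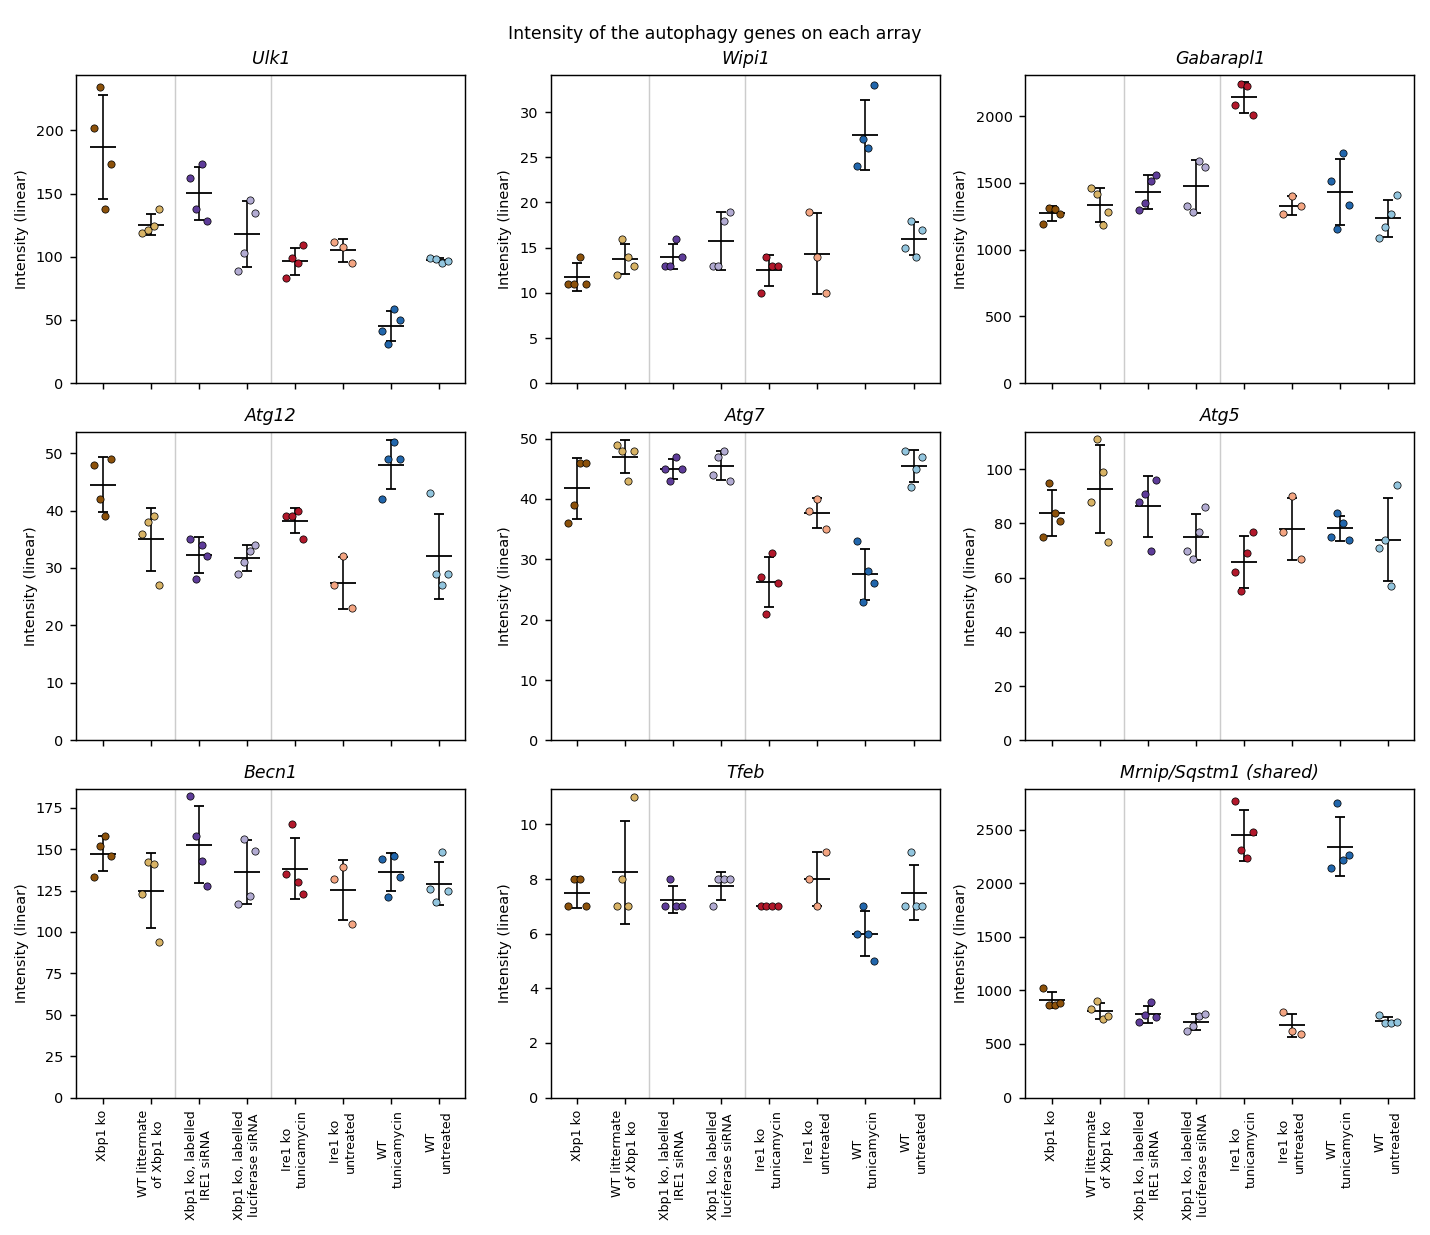
Intensity (linear scale) of the 8 autophagy genes and of the probe set shared by Mrnip and Sqstm1 on each of the 31 arrays, with 1 point per array and a bar and whiskers for the mean and SD of each group. Ulk1 lay between 83 and 109 after tunicamycin in Ire1 ko liver and between 31 and 59 after tunicamycin in WT liver, and the shared probe set lay at 2139 or more in both tunicamycin groups.

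In Ire1 ko liver, Gabarapl1 and Atg12 were higher and Atg7 was lower after tunicamycin than untreated. There 2 of 8 autophagy genes were called higher and 1 of 8 lower, against 17.4% and 10.3% of all 15173 genes tested. The median log2 difference of the 8 genes was -0.14, against 0.00 over all genes tested. In whole liver, fewer cells of a type and less RNA per cell cannot be told apart.

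In WT liver, 5 of the 8 genes were called changed after tunicamycin. Wipi1 and Atg12 were higher, and Ulk1, Atg7 and Tfeb were lower, after tunicamycin than in untreated WT liver. Of all genes tested there, 18.5% were called higher and 17.6% lower, against 2 of 8 and 3 of 8 autophagy genes, and whether these shares differ was not tested. The median log2 difference of the 8 genes was 0.09, against -0.02 over all genes tested. The sum over 8 of 8 markers of Kupffer cells, the macrophages of the liver, lay between 605 and 859 in Ire1 ko tunicamycin and between 569 and 1888 in Ire1 ko untreated livers, and between 391 and 538 in WT tunicamycin and between 599 and 1204 in WT untreated livers. The sum over 8 of 8 hepatocyte markers lay between 38967 and 41814 in Ire1 ko tunicamycin and between 37579 and 41822 in Ire1 ko untreated livers, and between 36728 and 37144 in WT tunicamycin and between 38500 and 41924 in WT untreated livers. The sum over 6 of 6 endothelial markers lay between 345 and 540 in Ire1 ko tunicamycin and between 336 and 491 in Ire1 ko untreated livers, and between 278 and 391 in WT tunicamycin and between 411 and 530 in WT untreated livers. The WT groups did not overlap in any of these sums, nor in that of 2 of 4 erythroid markers (112 to 160 in WT tunicamycin, 189 to 275 in WT untreated livers). The Kupffer and hepatocyte sums did not overlap between Ire1 ko tunicamycin and WT tunicamycin livers either. By limma, 3 of 8 Kupffer, 4 of 8 hepatocyte, 3 of 6 endothelial and 1 of 2 erythroid markers were lower after tunicamycin in WT liver. In Ire1 ko liver these counts were 0 of 8, 0 of 8, 1 of 6 and 1 of 2. Of all genes tested, 17.6% were lower in WT and 10.3% in Ire1 ko liver. Others went the other way: 1 hepatocyte and 1 endothelial marker were higher in WT liver, and 1 hepatocyte marker in Ire1 ko liver. The 4 cholangiocyte markers summed to between 18 and 23 on every array, close to the floor. Sums of 5 of 6 lymphocyte markers, also close to the floor, were 24 to 27 in Ire1 ko tunicamycin and 28 to 29 in Ire1 ko untreated livers. In WT they were 23 to 25 and 26 to 28, and neither pair overlapped. By limma 0 of 5 lymphocyte markers and 1 of 6 stellate and fibroblast markers were lower after tunicamycin in each genotype. Stellate and neutrophil sums overlapped in both. The part of these cells in the results was not tested.

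Ulk1, the kinase that starts autophagosome formation, was lower after tunicamycin in WT liver and not called in Ire1 ko liver. In Ire1 ko liver it was at 83, 99, 95 and 109 after tunicamycin, against 112, 108 and 95 untreated. These groups overlapped, and the log2 difference was -0.13 (95% interval -0.48 to 0.23, limma adjusted p = 0.664), or -0.10 without untreated replicate 2.

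In WT liver the intensities of Ulk1 were 41, 31, 59 and 50 after tunicamycin, against 99, 98, 95 and 97 untreated. The groups did not overlap, and every WT array after tunicamycin was below every untreated one. The fold was 0.453 (95% interval 0.359 to 0.570), with a log2 difference of -1.14 (SE 0.16, limma adjusted p = 1.77e-05).

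For Ulk1 the tunicamycin change in Ire1 ko minus that in WT was 1.02 (SE 0.23, limma adjusted p = 0.0115) on the log2 scale, with all genes called in 3.58% (higher) and 3.95% (lower) of cases for this difference of differences. It was 1.04 with adjusted p = 0.025 without untreated Ire1 ko replicate 2, and it was called in 15 of 15 fits that each left out 1 array. After tunicamycin, Ulk1 was 2.18-fold as high in Ire1 ko as in WT liver (95% interval 1.73 to 2.75, limma adjusted p = 6.43e-05), and all Ire1 ko arrays lay above all WT arrays. In this comparison 9.68% of all genes were called higher and 8.5% lower, against 2 of 8 and 1 of 8 autophagy genes. This comparison uses the same tunicamycin arrays as those above.

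Becn1, which encodes beclin 1 of the class III PI3 kinase complex, was one of the genes that moved least. It was at 135, 165, 130 and 123 in Ire1 ko tunicamycin livers, against 132, 139 and 105 in Ire1 ko untreated livers. It was at 144, 121, 146 and 133 in WT tunicamycin livers, against 126, 118, 148 and 125 in WT untreated livers. Both pairs overlapped, with log2 differences of 0.14 (95% interval -0.13 to 0.42) and 0.07 (95% interval -0.18 to 0.33), and neither passed the test. The first was 0.22 (adjusted p = 0.329) without untreated Ire1 ko replicate 2.

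Wipi1, which encodes a protein that binds the lipid made by that kinase on the forming membrane, was higher after tunicamycin in WT liver, where Ulk1 was lower. In Ire1 ko liver Wipi1 was at 10, 14, 13 and 13 after tunicamycin, against 19, 14 and 10 in untreated liver, with complete overlap and a log2 difference of -0.16 (95% interval -0.57 to 0.25), or -0.15 without untreated replicate 2. In WT liver it was at 24, 27, 26 and 33 after tunicamycin, against 15, 18, 14 and 17 in untreated liver. All arrays after tunicamycin lay above all untreated ones, and the log2 difference was 0.78 (SE 0.18, limma adjusted p = 0.00224).

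After tunicamycin, Wipi1 was lower in Ire1 ko than in WT liver on every array, with a fold of 0.454 (95% interval 0.349 to 0.591, limma adjusted p = 0.000208). The tunicamycin change in Ire1 ko minus that in WT was -0.94 (SE 0.26, limma adjusted p = 0.0396). That call was lost in 11 of 15 fits that left out 1 array, the highest adjusted p of which was 0.0949, and without untreated Ire1 ko replicate 2 the value was -0.93 with adjusted p = 0.0787. Wipi1 had 6 probe sets, and 4 of the 5 others also read higher after tunicamycin in WT liver. The one with the largest difference averaged 5.50 ± 0.58 in Ire1 ko tunicamycin livers, 11.8 ± 2.8 in WT tunicamycin livers and 6.00 ± 0.82 in WT untreated livers (SD, n = 4 each), close to the floor. The brightest of the 5 did not read higher after tunicamycin in WT liver (log2 difference -0.05). It lay at 7 to 8 in Ire1 ko and 7 to 10 in WT tunicamycin livers, with overlap (-0.08).

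Gabarapl1, a member of the ATG8 family that is fixed to the autophagosome membrane, rose after tunicamycin in Ire1 ko liver. It was at 2082, 2240, 2227 and 2008 after tunicamycin in Ire1 ko liver, against 1265, 1402 and 1323 in untreated Ire1 ko liver, with no overlap. The fold was 1.61 (95% interval 1.36 to 1.90, limma adjusted p = 0.000216), and the log2 difference was 0.69, or 0.72 without untreated replicate 2. In WT liver Gabarapl1 was at 1513, 1157, 1725 and 1331 after tunicamycin, against 1088, 1170, 1266 and 1409 in untreated liver. These groups overlapped, with a log2 difference of 0.21 (95% interval -0.02 to 0.43, limma adjusted p = 0.151).

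All 4 Ire1 ko arrays after tunicamycin were above all 4 WT arrays after tunicamycin for Gabarapl1, and the fold was 1.51 (95% interval 1.29 to 1.76, limma adjusted p = 0.000636). The difference of the tunicamycin changes, 0.48 on the log2 scale (SE 0.15), did not pass the test (limma adjusted p = 0.0773), and was 0.52 (adjusted p = 0.0935) without untreated Ire1 ko replicate 2. It passed with a filter at a group mean intensity of 16 (adjusted p = 0.0396) and with a fit over all 31 arrays (0.0312), and over all alternatives without a left-out array the adjusted p ranged between 0.0312 and 0.205. A second probe set of Gabarapl1 averaged 439 ± 51 in Ire1 ko tunicamycin livers and 232 ± 32 in Ire1 ko untreated livers (SD, n = 4 and 3). It averaged 240 ± 52 in WT tunicamycin livers and 178 ± 41 in WT untreated livers (SD, n = 4 each). Its Ire1 ko tunicamycin arrays, between 380 and 505, also lay above all 4 WT tunicamycin arrays, between 166 and 276.

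**Figure D2:**
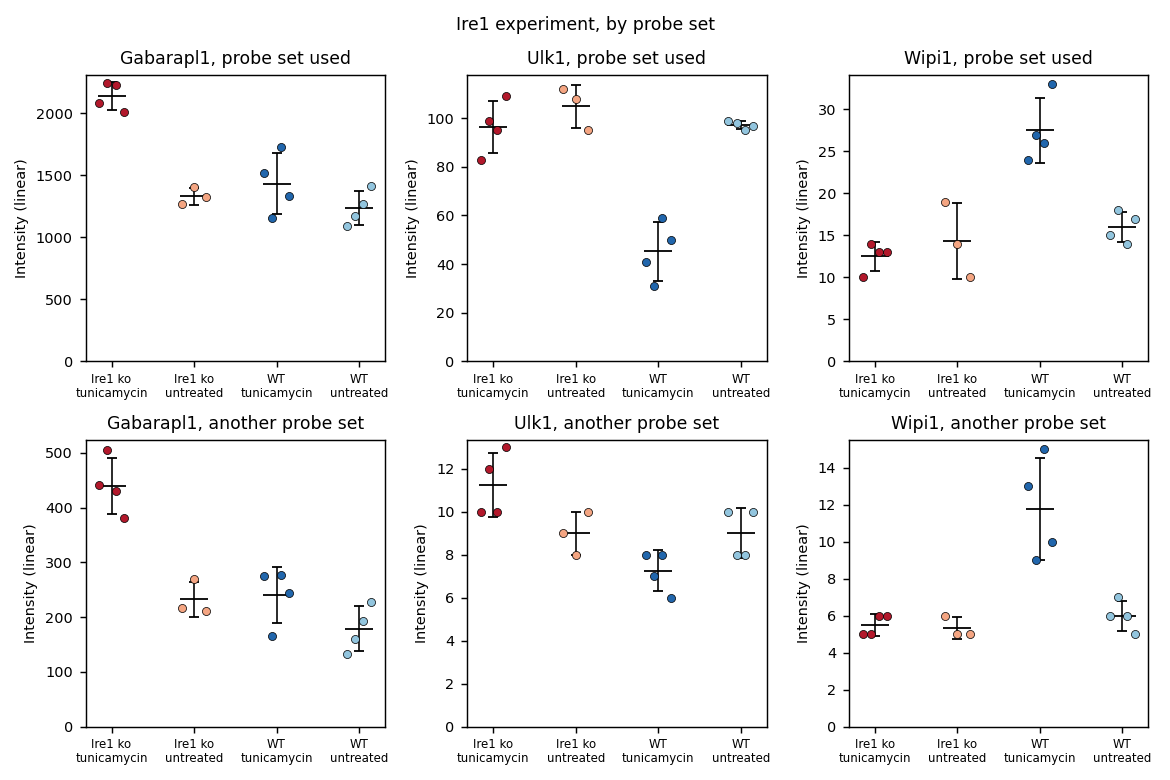
Intensity (linear scale) in the Ire1 experiment of Gabarapl1, Ulk1 and Wipi1, read from the probe set used in the tests (top) and from another probe set of the same gene (bottom), with 1 point per array and mean and SD per group. The other probe sets of Ulk1 and Wipi1 shown lie near the floor, at 13 or less and at 15 or less. Both have the same order of the 2 tunicamycin groups as the first. The Wipi1 probe set at the bottom is the one with the largest difference between these groups among the others of that gene. The brightest of the others, not shown, overlapped between them (log2 difference -0.08).

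The second probe set of Ulk1 averaged 11.3 ± 1.5 in Ire1 ko tunicamycin livers and 9.0 ± 1.0 in Ire1 ko untreated livers (SD, n = 4 and 3). It averaged 7.25 ± 0.96 in WT tunicamycin livers and 9.0 ± 1.2 in WT untreated livers (SD, n = 4 each). The order of the tunicamycin groups was therefore the same in both Ulk1 probe sets, at levels where 1 unit of rounding is a large step.

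Among the conjugation genes, Atg7 and Atg12 changed after tunicamycin in both genotypes. Atg7, the E1-like enzyme that activates both ubiquitin-like systems, was at 27, 21, 31 and 26 in Ire1 ko tunicamycin livers, against 38, 40 and 35 in Ire1 ko untreated livers. It was at 33, 23, 28 and 26 in WT tunicamycin livers, against 48, 42, 45 and 47 in WT untreated livers. Neither pair overlapped, and Atg7 was lower after tunicamycin on every array.

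The log2 difference of Atg7 was -0.53 in Ire1 ko (SE 0.14, limma adjusted p = 0.0107) and -0.74 in WT liver (SE 0.13, limma adjusted p = 0.000303). The first was -0.49 with adjusted p = 0.0468 without untreated Ire1 ko replicate 2. The difference between the 2 changes was 0.20 (95% interval -0.21 to 0.62), or 0.25 without that array, which did not pass the test. Atg7 had 4 probe sets, and the others lay near the floor. From the brightest of these down, they read -0.44, -0.06 and -0.11 after tunicamycin in Ire1 ko liver on the log2 scale. In WT liver they read -0.25, -0.19 and 0.

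Atg12, the ubiquitin-like protein that ATG7 activates and that is joined to ATG5, was at 39, 39, 40 and 35 in Ire1 ko tunicamycin livers, against 27, 32 and 23 in Ire1 ko untreated livers. It was at 42, 49, 52 and 49 in WT tunicamycin livers, against 43, 29, 27 and 29 in WT untreated livers. The Ire1 ko groups did not overlap, and the WT groups overlapped through untreated WT replicate 1. The log2 difference was 0.50 in Ire1 ko (limma adjusted p = 0.0281) and 0.61 in WT liver (limma adjusted p = 0.00351). The first was 0.62 with adjusted p = 0.017 without untreated Ire1 ko replicate 2.

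Atg12's call in Ire1 ko liver held in 2 of 7 fits that left out 1 array, with adjusted p up to 0.134. Quantile normalization gave a log2 difference of 0.26 there, with adjusted p = 0.24, and the adjusted p ranged between 0.0115 and 0.24 over the alternatives that kept all arrays. In WT liver the call held in all 8 such fits. After tunicamycin the Ire1 ko arrays of Atg12 lay below the WT arrays without overlap, and the log2 difference of -0.33 did not pass the test (limma adjusted p = 0.162). A second probe set of Atg12 overlapped there, at 15 to 18 in Ire1 ko and 16 to 18 in WT tunicamycin livers (log2 difference -0.05). It read higher after tunicamycin in both genotypes, by 0.35 in Ire1 ko and 0.26 in WT liver on the log2 scale.

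Atg5, the partner to which ATG12 is joined, was at 62, 55, 69 and 77 in Ire1 ko tunicamycin livers, against 77, 90 and 67 in Ire1 ko untreated livers. It was at 75, 84, 80 and 74 in WT tunicamycin livers, against 71, 74, 57 and 94 in WT untreated livers. With this probe set all these groups overlapped, and no Atg5 difference passed the test in the main fits. After tunicamycin the 3 Atg5 probe sets all read lower in Ire1 ko than in WT liver, with log2 differences of -0.26, -0.40 and -0.63. The last 2 did not overlap there, at 57 to 63 against 74 to 86 and at 19 to 26 against 28 to 37. The mean of the 3 gave -0.43 with limma adjusted p = 0.0341. Over the alternatives that kept all arrays, that adjusted p ranged between 0.0341 and 0.323.

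The probe set shared by Mrnip, which encodes a factor of DNA repair, and Sqstm1, which encodes the cargo receptor p62, was higher after tunicamycin on every array. It was at 2770, 2310, 2231 and 2481 in Ire1 ko tunicamycin livers, against 797, 625 and 596 in Ire1 ko untreated livers. It was at 2139, 2748, 2218 and 2266 in WT tunicamycin livers, against 769, 695, 696 and 702 in WT untreated livers. The gap between treated and untreated arrays was wide in both genotypes.

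The fold of the shared probe set was 3.66 in Ire1 ko (95% interval 3.12 to 4.28, limma adjusted p = 3.46e-09) and 3.26 in WT liver (95% interval 2.82 to 3.78, limma adjusted p = 1.2e-09). Without untreated Ire1 ko replicate 2 the log2 difference in Ire1 ko was 1.82. The difference between the changes was 0.17 on the log2 scale (95% interval -0.15 to 0.48), or 0.12 without that array, and which of the 2 genes the signal comes from was not tested.

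Tfeb, a transcription factor for lysosomal and autophagy genes, lay between 5 and 11 on all 31 arrays, near the floor. It was at 7 on all 4 Ire1 ko tunicamycin arrays, against 8, 7 and 9 in Ire1 ko untreated livers. It was at 6, 7, 6 and 5 in WT tunicamycin livers, against 7, 9, 7 and 7 in WT untreated livers. The call in WT liver (log2 difference -0.32, limma adjusted p = 0.0456) rests on steps of 1 unit, and it held in 3 of 8 fits that left out 1 array, with adjusted p between 0.0178 and 0.145.

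**Figure D3:**
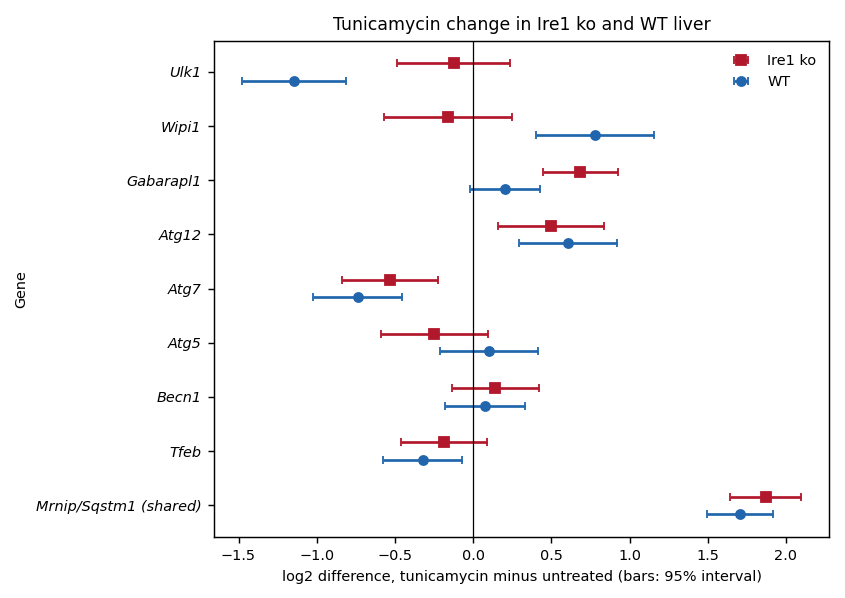
Log2 difference of tunicamycin minus untreated liver for the 8 autophagy genes and the probe set shared by Mrnip and Sqstm1 (x axis), in Ire1 ko (squares) and WT (circles), with 95% intervals from limma. The intervals of the 2 genotypes do not overlap for Ulk1 (-0.13 and -1.14), Wipi1 (-0.16 and 0.78) or Gabarapl1 (0.69 and 0.21), of which Gabarapl1 did not pass the test of the difference, and the shared probe set stands far to the right of 0 in both (1.87 and 1.71).

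RefSeq windows of 250 bases before and 50 bases after the gene start (build GRCm38.p6) were found for 8 of the 10 listed genes, and for neither Becn1 nor Atg12. They are shown for Ulk1 and Wipi1, whose tunicamycin change differed between the genotypes, and for Atg7, which fell in both and holds a match to the E-box CACGTG, the core of the element that TFEB binds (in capitals). Each reads 5′ to 3′ in the direction of the gene; Ulk1 lies at chr5:110810032-110810331 (minus strand), Wipi1 at chr11:109611340-109611639 (minus strand) and Atg7 at chr6:114670846-114671145 (plus strand).
Ulk1: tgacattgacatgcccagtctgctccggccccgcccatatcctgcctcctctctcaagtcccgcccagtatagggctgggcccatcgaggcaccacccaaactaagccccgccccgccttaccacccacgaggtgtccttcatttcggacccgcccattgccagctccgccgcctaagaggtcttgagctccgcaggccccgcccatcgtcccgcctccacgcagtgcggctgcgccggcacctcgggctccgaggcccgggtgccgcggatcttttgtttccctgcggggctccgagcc
Wipi1: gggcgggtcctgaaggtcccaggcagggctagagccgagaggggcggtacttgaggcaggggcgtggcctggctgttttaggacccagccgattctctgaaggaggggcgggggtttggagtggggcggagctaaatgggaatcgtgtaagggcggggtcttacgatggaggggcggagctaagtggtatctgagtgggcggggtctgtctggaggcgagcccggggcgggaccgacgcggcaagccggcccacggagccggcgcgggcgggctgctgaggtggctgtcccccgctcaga
Atg7: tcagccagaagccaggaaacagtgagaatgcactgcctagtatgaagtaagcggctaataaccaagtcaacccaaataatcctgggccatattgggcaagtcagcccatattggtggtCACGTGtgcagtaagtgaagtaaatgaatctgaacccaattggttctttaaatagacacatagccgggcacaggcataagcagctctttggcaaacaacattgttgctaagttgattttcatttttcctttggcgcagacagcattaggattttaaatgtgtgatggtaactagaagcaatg

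The 4 motifs searched on both strands were CACGTG, the C/EBP-ATF core TGATGNAA, the antioxidant response core TGACNNNGC and the XBP1 core TGACGTGG, and none contains another. CACGTG was found in Atg7, at position -132 from the gene start, and in Atg5, at -14, and it occurs in 7.15% of all 32851 windows. TGACNNNGC was found in Map1lc3b at position 5 as TGACTCGGC and occurs in 12.4% of all windows. TGATGNAA, in 3.97% of all windows, and TGACGTGG, in 0.676%, had 0 matches in the windows of the listed genes, Ulk1 and Wipi1 included. A missing match says only that these letters are not in these windows.

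Without tunicamycin, no autophagy gene was called different between Ire1 ko and WT liver. By limma 0 of 8 were called higher and 0 lower, also 0 and 0 at an unadjusted p under 0.05, where 0.0791% of all genes were called higher and 0.863% lower. Their log2 differences lay between -0.27 (Atg7) and 0.11 (Gabarapl1). Atg7 was at 38, 40 and 35 in Ire1 ko untreated livers, against 48, 42, 45 and 47 in WT untreated livers, without overlap, and had a limma adjusted p of 0.594. Without untreated Ire1 ko replicate 2 the Atg7 value was -0.32 (adjusted p = 0.632), and those of all 8 genes lay between -0.34 (Atg12) and 0.19 (Tfeb). A second Atg7 probe set, near the floor, went the other way over all arrays of these groups (log2 difference 0.23). It lay at 10 to 14 in Ire1 ko untreated and 9 to 12 in WT untreated livers, with overlap.

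In Xbp1 ko liver none of the 8 autophagy genes passed the threshold. By limma 0 of 8 were called higher and 0 lower (2 and 0 at an unadjusted p under 0.05), against 0.642% of all 14009 genes tested called higher and 2.07% called lower. Ulk1 was at 202, 234, 138 and 173 in Xbp1 ko livers, against 119, 121, 124 and 138 in WT littermates. The lowest Xbp1 ko array equalled the highest WT array, and the other 3 Xbp1 ko arrays lay above all WT arrays. The log2 difference was 0.55 (SE 0.16, limma adjusted p = 0.153).

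Ulk1 passed in 2 other fits, with adjusted p = 0.0343 with a filter at a group mean intensity of 16 and 0.0355 without Xbp1 ko replicate 3. Over the alternatives that kept all arrays its adjusted p lay between 0.0343 and 0.283. Atg12, the other gene with an unadjusted p under 0.05, was at 48, 42, 39 and 49 in Xbp1 ko livers, against 36, 38, 39 and 27 in WT littermates. These groups met at 39, and the log2 difference was 0.35 (limma adjusted p = 0.3). Gabarapl1, at 1190 to 1315 in Xbp1 ko livers and 1186 to 1460 in WT littermates, had a log2 difference of -0.07 (95% interval -0.23 to 0.10).

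The arrays labelled IRE1 siRNA did not differ past the threshold from those labelled luciferase siRNA for any autophagy gene. By limma 0 of 8 were called higher and 0 lower, also 0 and 0 at an unadjusted p under 0.05, against 0.649% of all genes called higher and 1.14% lower. Ulk1 was at 162, 138, 173 and 128 on arrays labelled IRE1 siRNA, against 89, 103, 145 and 135 on arrays labelled luciferase siRNA. The groups overlapped, and the log2 difference was 0.37 (95% interval -0.05 to 0.78, limma adjusted p = 0.415). The other 7 log2 differences lay between -0.15 (Wipi1) and 0.20 (Atg5).

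The change with Xbp1 loss minus the change with Ire1 loss, each against its own untreated WT group, also called 0 of 8 higher and 0 lower by limma (1 and 0 at an unadjusted p under 0.05), where 0.162% of all genes were called higher and 0.662% lower. The 1 gene was Atg12, with a log2 value of 0.57 (95% interval 0.15 to 0.99, limma adjusted p = 0.276). It was 0.69 (adjusted p = 0.203) without untreated Ire1 ko replicate 2. Over the alternatives that kept all arrays it lay between 0.16 and 0.59.

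**Figure D4:**
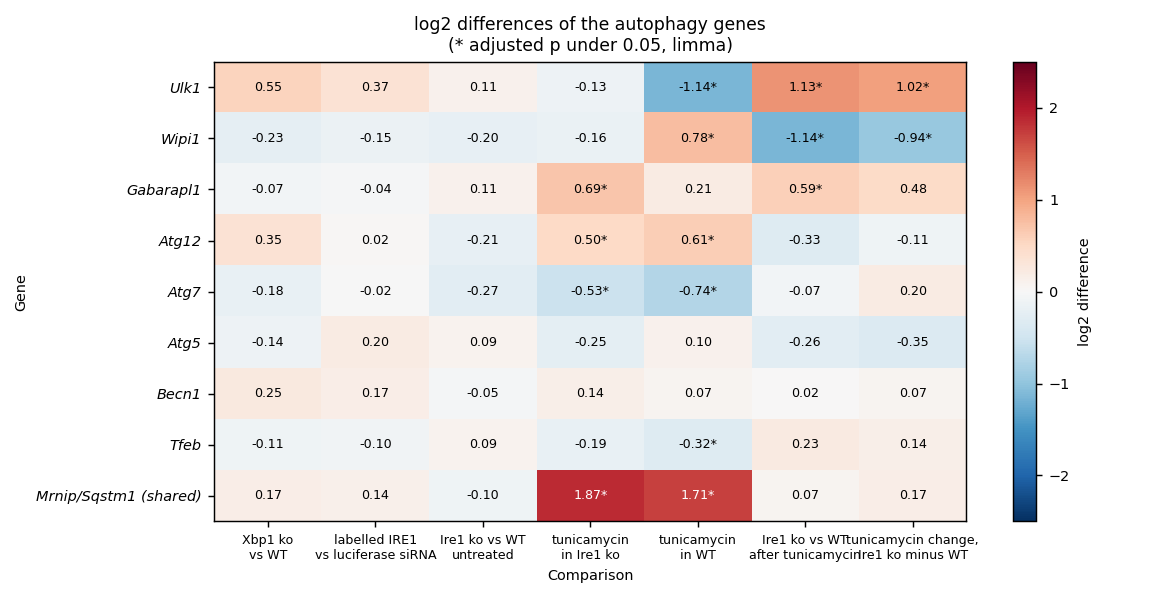
Log2 differences (colour and printed value) of the 8 autophagy genes and the probe set shared by Mrnip and Sqstm1 in 7 comparisons, where * marks limma's adjusted p under 0.05. The 3 comparisons without tunicamycin hold no mark, and Ulk1 stands out in the last 3 columns (-1.14 in WT, 1.13 between genotypes after tunicamycin, 1.02 for the difference of changes).

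Over the 8 groups, the SD of the group means on the log2 scale was 0.78 for the shared probe set, 0.61 for Ulk1, 0.38 for Wipi1, 0.34 for Atg7, 0.28 for Atg12, 0.25 for Gabarapl1, 0.15 for Atg5, 0.14 for Tfeb and 0.11 for Becn1. The group means of Ulk1 ran, from low to high, 45.3 ± 12.0 in WT tunicamycin, 96.5 ± 10.8 in Ire1 ko tunicamycin, 97.3 ± 1.7 in WT untreated, 105 ± 9 in Ire1 ko untreated (n = 3), 118 ± 26 in Xbp1 ko labelled luciferase siRNA, 126 ± 9 in WT littermates of Xbp1 ko, 150 ± 21 in Xbp1 ko labelled IRE1 siRNA and 187 ± 41 in Xbp1 ko (SD, n = 4 where not given). The arrays of neighbours in this order overlapped, other than those of the lowest pair. The order across experiments mixes age and treatment.

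Genes with the most similar pattern over the 31 arrays, among 5834 or 5835 with a mean intensity of 16 or more, are given as a description, since arrays of 1 group and the tunicamycin split are shared by all of them. Ulk1 was most like Anxa4 (Pearson r = 0.92), Sdha (0.91) and Hadhb (0.91). Wipi1 was most like Rnf181 (0.89), Slc38a10 (0.87) and Golgb1 (0.86). The shared probe set was most like Chka, 2410006H16Rik and Snhg5, each with r = 0.98.

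A further list of 71 autophagy genes, of which 65 were on the array with a probe set of their own, was also tested. In Ire1 ko liver, after tunicamycin, 19 of 62 tested were higher and 9 lower, against 17.4% and 10.3% of all genes. There 14 were higher and 8 lower without untreated Ire1 ko replicate 2. In WT liver 17 of 62 were higher and 18 lower, against 18.5% and 17.6% of all genes, and whether these shares differ was not tested. The 3 largest differences, all higher, were those of the same genes in both genotypes. Trib3, a pseudokinase induced by ER stress, averaged 721 ± 90 in Ire1 ko tunicamycin livers and 8.67 ± 3.06 in Ire1 ko untreated livers (SD, n = 4 and 3). It averaged 521 ± 112 in WT tunicamycin livers and 6.25 ± 1.26 in WT untreated livers (SD, n = 4 each).

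Ddit4, an inhibitor of mTORC1, lay at the floor untreated, at 4 to 5 in Ire1 ko and 3 to 5 in WT liver. After tunicamycin it had log2 differences of 3.02 in Ire1 ko and 2.90 in WT liver. Epg5, a tether for fusion with lysosomes, had 2.59 in Ire1 ko and 2.42 in WT liver, and Stbd1, a glycogen receptor, had 1.87 and 1.75. Zfyve1, which encodes a marker of the ER membranes that give rise to autophagosomes, fell by 1.18 in Ire1 ko and by 1.21 in WT liver on the log2 scale. All of these passed limma's test in both genotypes, and none of their differences between genotypes did (limma adjusted p of 0.759 or more).

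Some genes of the list rose less in Ire1 ko than in WT liver. The difference of tunicamycin changes was called by limma as positive in 6 and negative in 8 of 62 genes, against 3.58% and 3.95% of all genes, and in 4 and 5 without untreated Ire1 ko replicate 2. Mitf, a transcription factor related to TFEB, was at 14, 13, 14 and 20 in Ire1 ko tunicamycin livers, against 8, 7 and 8 in Ire1 ko untreated livers. It was at 45, 54, 57 and 37 in WT tunicamycin livers, against 9, 10, 9 and 9 in WT untreated livers. The rise was present in both genotypes, without overlap, and was smaller in Ire1 ko by 1.39 on the log2 scale (limma adjusted p = 0.000959), with a value of -1.46 (adjusted p = 0.0023) without untreated Ire1 ko replicate 2.

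Tmem41b, a lipid scramblase of the ER, was at 108, 109, 124 and 140 in Ire1 ko tunicamycin livers, against 50, 80 and 57 in Ire1 ko untreated livers. It was at 263, 279, 340 and 254 in WT tunicamycin livers, against 89, 64, 54 and 92 in WT untreated livers. The change in Ire1 ko minus that in WT was -0.98 (limma adjusted p = 0.0324). Atg13, a partner of ULK1, was at 29, 30, 33 and 38 in Ire1 ko tunicamycin livers, against 19, 21 and 19 in Ire1 ko untreated livers. It was at 91, 85, 124 and 117 in WT tunicamycin livers, against 37, 23, 30 and 42 in WT untreated livers. Its untreated arrays already lay lower in Ire1 ko than in WT liver, without overlap, though this was not called. The difference of changes of Atg13 was -0.96 (limma adjusted p = 0.0316). Neither passed without untreated Ire1 ko replicate 2, with -0.79 (adjusted p = 0.0983) for Tmem41b and -0.91 (adjusted p = 0.0775) for Atg13. Of 15 fits that left out 1 array, 5 called Tmem41b and 6 called Atg13.

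After tunicamycin, 10 of 62 genes of the list were higher and 12 lower in Ire1 ko than in WT liver, against 9.68% and 8.5% of all genes. Atg13 (-1.67), Mitf (-1.66), Tmem41b (-1.24), Uvrag (-1.13), a partner of beclin 1, and Fundc1 (-0.84), a receptor for mitochondria, were among the lower ones on the log2 scale. The untreated arrays of Atg13 also lay lower in Ire1 ko than in WT liver, as given above.

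Of 8 measured receptors that deliver parts of the ER to autophagosomes, 6 were higher and 0 lower in Ire1 ko than in WT liver after tunicamycin, where 9.68% of all genes were higher and 8.5% lower (median log2 difference 0.52, against 0.01 over all genes tested). After tunicamycin in Ire1 ko liver 2 were higher and 3 lower, where 17.4% of all genes were higher and 10.3% lower (median -0.27, against 0.00). There 1 was higher without untreated Ire1 ko replicate 2, as Retreg3 no longer passed. In WT liver 0 were higher and 6 lower, where 18.5% of all genes were higher and 17.6% lower (median -0.81, against -0.02). The receptors as a group were not tested, and the marker sums of other cells given above also differed between these groups.

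Retreg3, a reticulon-like ER-phagy receptor, was at 28, 30, 30 and 31 in Ire1 ko tunicamycin livers, against 22, 19 and 17 in Ire1 ko untreated livers. It was at 4, 6, 6 and 6 in WT tunicamycin livers, against 20, 12, 25 and 13 in WT untreated livers. Neither pair overlapped, and the WT tunicamycin arrays lay near the floor. The difference of changes was 2.25 on the log2 scale (limma adjusted p = 0.000177), or 2.24 (adjusted p = 0.000921) without untreated Ire1 ko replicate 2. Values at the floor make the WT change a compressed one.

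In Xbp1 ko liver 3 of these 8 receptors were lower and 0 higher, against 2.07% and 0.642% of all genes. On simulated data the fits of 8 arrays, used here and for the siRNA arrays, made more false calls than the threshold allows. Tex264, a single-pass ER-phagy receptor, was at 13, 13, 16 and 20 in Xbp1 ko livers, against 87, 84, 72 and 57 in WT littermates, with a log2 difference of -2.28 (limma adjusted p = 0.00062). Retreg3 was at 5, 6, 6 and 6 in Xbp1 ko livers, against 24, 24, 25 and 15 in WT littermates (log2 difference -1.91, limma adjusted p = 0.00113). Retreg2 was at 92, 103, 95 and 100 in Xbp1 ko livers, against 155, 172, 143 and 165 in WT littermates (-0.70, limma adjusted p = 0.00315). None of these pairs overlapped, and each of the 3 was called in 8 of 8 fits that left out 1 array.

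Tex264 was at 20, 23, 20 and 27 on arrays labelled IRE1 siRNA, against 66, 94, 80 and 68 on arrays labelled luciferase siRNA, the arrays with the low Ern1. The log2 difference was -1.77 (limma adjusted p = 0.00128), with its direction bound to the labels, and Retreg2 had -0.51 (limma adjusted p = 0.00866). Each was called in 8 of 8 fits that left out 1 array. In untreated Ire1 ko liver none of the 8 receptors was called, and Tex264, Retreg2 and Retreg3 had -0.10, -0.01 and 0.20, or -0.11, -0.11 and 0.21 without replicate 2. The change with Xbp1 loss minus that with Ire1 loss was -2.18 for Tex264 (limma adjusted p = 5.88e-08), -2.11 for Retreg3 (3.49e-05) and -0.69 for Retreg2 (0.00718). These were the 3 called among the 65 genes of the list, where 0.162% of all genes were called higher and 0.662% lower. Without untreated Ire1 ko replicate 2 they were -2.17 (adjusted p = 5.34e-07), -2.12 (0.00017) and -0.59 (0.0582), so that Retreg2 no longer passed.

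**Figure D5:**
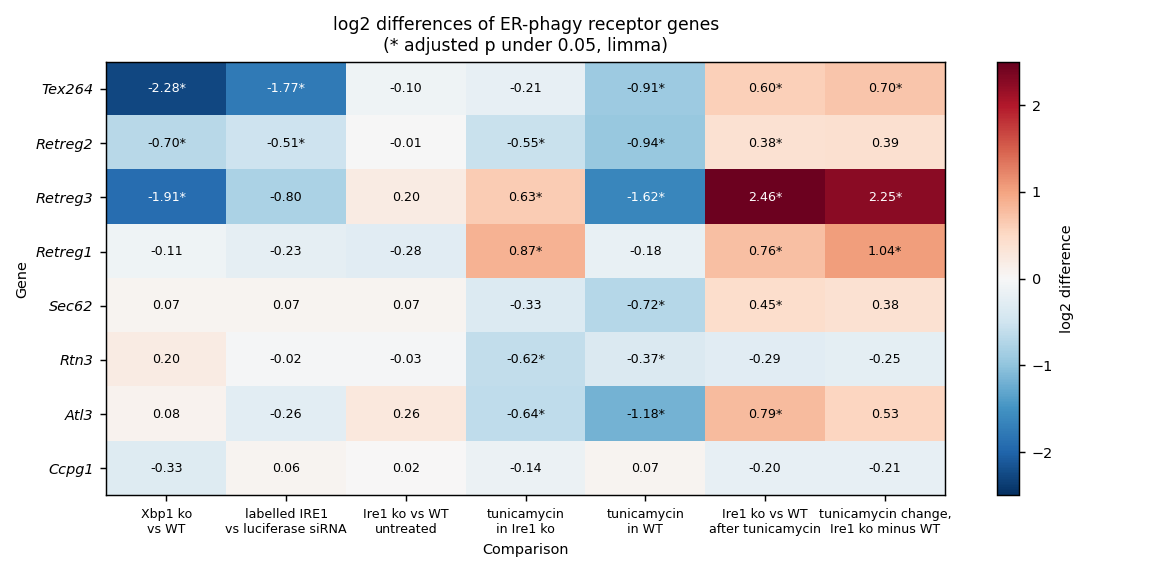
Log2 differences (colour and printed value) of 8 genes for ER-phagy receptors in 7 comparisons, where * marks limma's adjusted p under 0.05. Tex264, Retreg2 and Retreg3 are lower in Xbp1 ko (-2.28, -0.70 and -1.91) and in WT liver after tunicamycin, and 6 of the 8 are higher in Ire1 ko than in WT liver after tunicamycin.

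Outside the ER-phagy receptors, 4 genes of the list were called without tunicamycin. In Xbp1 ko liver 1 of 63 tested was higher and 4 were lower, against 0.642% and 2.07% of all genes. The higher one was Bnip3 (0.51), a receptor for mitochondria. Of the lower ones, Atg13 (-0.59) is the one that is no ER-phagy receptor. Of 8 fits that left out 1 array, 1 called Bnip3 (adjusted p up to 0.126) and 5 called Atg13 (up to 0.0574). As given above, fits of 8 arrays made more false calls on simulated data than the threshold allows. On the arrays labelled IRE1 siRNA 0 of 62 were higher and 2 lower, against 0.649% and 1.14% of all genes. The 2 were the receptors Tex264 and Retreg2. In untreated Ire1 ko liver 0 of 62 were higher and 2 lower, against 0.0791% and 0.863% of all genes. Ulk2, the paralog of Ulk1, was lower by a log2 difference of -0.80 (limma adjusted p = 0.0174). Wdr45b, a relative of Wipi1, was lower by -0.56 (limma adjusted p = 0.0388). Without replicate 2 of that group the values were -0.87 (adjusted p = 0.0403) and -0.63 (adjusted p = 0.051), and of 7 fits that left out 1 array 4 called Ulk2 and 1 called Wdr45b. Ulk2 averaged 72.0 ± 7.0 in Ire1 ko untreated livers (SD, n = 3) and 125 ± 7 in WT untreated livers (SD, n = 4).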

How the data were processed

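The authors deposited linear intensities of probe sets as whole numbers. Per the submitters' processing notes they used affy and RMA, a method that corrects background, normalizes arrays by quantiles and summarises probes by median polish; versions are not given in the sources used here. A genome build is not given in the sources used here, and no coordinates were assigned to probe sets. Of 45037 probe sets, the array annotation gave 1 gene symbol to 28898. Each gene was read from the probe set with 1 symbol and the highest mean over 31 arrays. A probe set annotated to both Mrnip and Sqstm1 entered the fits as a separate feature.

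Log2 intensities were tested two-sided with limma 3.58.1 in R 4.3.3 (lmFit, eBayes with an intensity trend). Genes entered a fit when 3 or more of its arrays held them above percentile 30 of the array. Adjusted p-values (Benjamini-Hochberg, threshold 0.05) cover all genes tested. The Xbp1 arrays, the siRNA arrays and the Ire1 arrays each had a fit, and the difference between Xbp1 loss and Ire1 loss came from a fit over 31 arrays. Counts planned over the 10 listed genes cover the 8 with a probe set of their own. The fits were tested on simulated data, where the fits of 8 arrays made more false calls than the threshold allows. The number of arrays limits the precision. For same-numbered arrays, the correlation of their deviations lay between -0.18 and 0.29 over 22 pairs, and 8 were over 0.1. Arrays of different numbers were not compared, so these values cannot decide whether the numbers pair the samples.

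The genes, lists, motifs and tests were chosen with earlier results of these data known. Named were the listed genes, up to 6 called genes of the further list with the largest log2 difference per comparison, the 3 genes most like each of the 3 most variable listed genes, and Ern1, Xbp1, Ddit3 and Hspa5 as checks. All ER-phagy receptors were plotted. Tex264, Retreg2 and Retreg3 in untreated Ire1 ko liver and Stbd1 and Zfyve1 in WT liver were added after their values were seen. So were the further probe sets of Atg5, Atg7 and Atg12, and the brightest other one of Wipi1. Hspa5, an ER chaperone, had log2 differences of 1.97 (Ire1 ko) and 2.00 (WT) after tunicamycin. Alternatives changed the normalization, filter, probe set summary, trend, block and arrays.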

Additional observations from a re-analysis of the deposited data

Results flagged for a closer look

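The tunicamycin change differed between Ire1 ko and WT liver by limma's test of the difference (Ire1 ko minus WT, log2 scale) for Ulk1 (1.02) and Wipi1 (-0.94) among the listed genes. In the further autophagy list, of the genes named by rule, it differed for Retreg3 (2.25), Retreg1 (1.04), Ulk2 (0.97), Atg13 (-0.96), Tmem41b (-0.98) and Mitf (-1.39). Without untreated Ire1 ko replicate 2, Wipi1, Atg13 and Tmem41b no longer passed. Ulk2 was also lower in untreated Ire1 ko than in untreated WT liver (-0.80). The change with Xbp1 loss minus that with Ire1 loss differed for Tex264 (-2.18), Retreg3 (-2.11) and Retreg2 (-0.69), of which Retreg2 no longer passed without that array. In each of these values the Ire1 genotype and the labelled strain cannot be told apart.

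Dixon's test flagged a single array against the other 3 of its group in 8 of 62 groups of intensities. Its chance rate of about 1 in 20 holds for values without ties. These values are whole numbers with ties, so the count cannot be set against that rate. The shared Mrnip and Sqstm1 probe set was at 1018 on Xbp1 ko replicate 1 (next value 887) and at 769 on untreated WT replicate 1 (next value 702). Atg12 was at 43 on untreated WT replicate 1, against 29 or less on the others. Atg7 was at 43 on replicate 3 of the WT littermates of Xbp1 ko, where the next value was 48. The other 4 lay near the floor: Wipi1 at 14 on Xbp1 ko replicate 3 (next value 11), and Tfeb at 8 on labelled IRE1 siRNA replicate 2 (next value 7), at 7 on labelled luciferase siRNA replicate 1 (next value 8) and at 9 on untreated WT replicate 2 (next value 7).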

How the results depend on the processing

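Over 9 alternatives that kept all arrays and 31 that left out 1, no named result changed direction among the called ones. The count of autophagy genes higher after tunicamycin in Ire1 ko liver fell to 1, without Atg12, with quantile normalization, with brighter probe sets centred on a common median and with the mean of all probe sets of a gene. The common median also gave 2 genes lower there, with Atg5 added (-0.43, limma adjusted p = 0.0419). It shifted every gene by -0.18 (tunicamycin in Ire1 ko) and -0.13 (in WT). The mean of all probe sets gave 2 genes lower in Ire1 ko than in WT after tunicamycin. For the difference of tunicamycin changes, 0 genes were lower without the filter (Wipi1, adjusted p = 0.0599), and 2 were higher with a group mean of 16 or more and with one fit over all 31 arrays. The group mean filter called 1 gene, Ulk1, higher in Xbp1 ko. The causes were not tested.

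Leaving out 1 array at a time gave counts of 0 to 1 (higher, Xbp1 ko), 1 to 2 (higher, tunicamycin in Ire1 ko), 1 to 2 (higher, difference of changes) and 0 to 1 (lower, difference of changes). The counts after tunicamycin in WT liver also moved. There Tfeb was called lower in 3 of 8 such fits. Gabarapl1 was called higher in 1 of 8, without WT tunicamycin replicate 2 (0.30, limma adjusted p = 0.0232).

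Whether the replicate numbers pair the samples is not known. The fit with a replicate block ended the calls of Tfeb in WT liver (-0.32, limma adjusted p = 0.0573), Tex264 (0.0594) and Retreg2 (0.0957) on the siRNA arrays, Atg13 (0.0744) and Bnip3 (0.19) in Xbp1 ko, Wdr45b (0.115) in untreated Ire1 ko, and Retreg1 (0.0553) and Tmem41b (0.0516) for the difference of changes, and left the counts of called autophagy genes within 1.5 times otherwise; all genes called numbered 197 with the replicate block against 380 in Xbp1 ko, and 43 against 251 on the siRNA arrays. A fit over all 31 arrays called 571 in Xbp1 ko, and the group mean filter 402 on the siRNA arrays. Other settings ended the calls of Bnip3 (no filter, 0.0743; no intensity trend, 0.0553), Tmem41b (no filter, 0.0597), Wdr45b (a fit over all 31 arrays, 0.108) and Retreg2 for Xbp1 loss minus Ire1 loss (only the 4 groups compared, 0.0648). Signal near the floor limits Tfeb and Wipi1, and Ddit4, Mitf and Retreg3 of the further list.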
